A study of Mus musculus with 9 samples.

Results

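The core of glycolysis, from the phosphoglucose isomerase Gpi1 to the pyruvate kinase gene Pkm, was followed step by step through neutrophils of the bone marrow, blood and pancreatic tumor. The genes were taken by symbol from the deposited expression table and made up 10 of its 46517 genes: Gpi1, Aldoa, Aldoc, Tpi1, Gapdh, Pgk1, Pgam1, Eno1, Eno2 and Pkm. Each symbol stood in 1 row. The 9 libraries came from C57BL/6 mice given an orthotopic transplant of pancreatic ductal adenocarcinoma (PDAC) cells, and neutrophils were sorted on day 27. All 3 groups therefore came from tumor-bearing (OT) animals: 3 bone marrow libraries of cells labelled Ly6G.hi, 3 blood libraries and 3 tumor libraries of cells labelled Ly6G+. The gate kept live CD45+ cells with Ly6G and Ly6C and left out cells with the lymphoid antigens CD3, B220 or NK1.1, and the age of the mice was not given in the sources used here. As models the groups had limits: the tumor was grown from 1 luciferase-marked cell line of mouse PDAC, cells of 5 mice were pooled in each of 3 experiments, and only the tumor was digested with enzymes. The study set these compartments against each other to describe how neutrophils in the tumor differ from their counterparts. By the paper's account those counterparts came from the same animals, so the 3 groups are not separate sets of mice. The labels do not say which libraries share a pool.

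Glycolysis splits glucose into pyruvate, and neutrophils, which hold few mitochondria, draw most of their energy from it. Gpi1 turns glucose 6-phosphate into fructose 6-phosphate, the aldolases Aldoa and Aldoc cut the doubly phosphorylated sugar into a pair of three-carbon sugars, and Tpi1 converts one of these into the other. Gapdh then oxidises it, Pgk1 and Pkm make ATP, and Pgam1 and the enolases Eno1 and Eno2 rearrange the intermediate between them. Most of these genes are textbook targets of HIF-1, the transcription factor that responds to low oxygen. Aldoc and Eno2 are best known from brain, and the Pkm row sums the M1 and M2 splice forms, which the table did not separate.

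The 10 genes lay on 7 chromosomes of GRCm38 (mm10). The paper states that reads were summarized per gene, without saying whether only exons were counted. Gpi1 lay at chr7:34201330-34230336, Aldoa at chr7:126795234-126800751, Aldoc at chr11:78322968-78327781, Tpi1 at chr6:124810586-124814296 and Gapdh at chr6:125161715-125166467. Pgk1 lay at chrX:106187100-106203699, Pgam1 at chr19:41911923-41918660, Eno1 at chr4:150236721-150248879, Eno2 at chr6:124760053-124769673 and Pkm at chr9:59656368-59679375. Promoters are shown for the 3 genes that rose most among the well-expressed ones in tumor against blood, Tpi1, Pgam1 and Pgk1, and for Gpi1, the gene that fell. Each line gives the 250 bases before a RefSeq start site (GRCm38.p6), 5′ to 3′. Capitals mark ACGTG or GCGTG, the core to which HIF-1 binds, read on either strand.
Tpi1, chr6:124814159-124814408, minus strand: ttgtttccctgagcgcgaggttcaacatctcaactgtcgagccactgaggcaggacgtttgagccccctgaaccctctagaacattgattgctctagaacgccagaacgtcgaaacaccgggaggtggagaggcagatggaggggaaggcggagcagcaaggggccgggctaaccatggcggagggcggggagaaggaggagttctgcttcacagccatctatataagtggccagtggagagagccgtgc
Pgam1, chr19:41911621-41911870, plus strand: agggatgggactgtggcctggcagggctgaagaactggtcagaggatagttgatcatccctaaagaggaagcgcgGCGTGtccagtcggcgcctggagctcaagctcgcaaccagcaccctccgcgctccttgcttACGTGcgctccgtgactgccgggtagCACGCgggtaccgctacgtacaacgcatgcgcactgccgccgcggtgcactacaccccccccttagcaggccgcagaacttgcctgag
Pgk1, chrX:106186850-106187099, plus strand: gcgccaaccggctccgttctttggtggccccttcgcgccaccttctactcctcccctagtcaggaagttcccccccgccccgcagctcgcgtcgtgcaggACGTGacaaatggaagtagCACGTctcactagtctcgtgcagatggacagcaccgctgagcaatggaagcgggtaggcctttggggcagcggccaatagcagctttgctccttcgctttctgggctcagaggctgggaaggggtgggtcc
Gpi1, chr7:34230337-34230586, minus strand: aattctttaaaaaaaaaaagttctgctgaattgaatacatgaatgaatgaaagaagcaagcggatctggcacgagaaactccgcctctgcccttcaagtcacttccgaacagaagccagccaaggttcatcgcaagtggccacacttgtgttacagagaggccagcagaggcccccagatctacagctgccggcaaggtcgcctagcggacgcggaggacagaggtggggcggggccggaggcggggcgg
In the 300-base window from 250 bases before to 50 bases after the start site, Pgam1 held 3 of these cores, which began 175, 114 and 88 bases before the start, and Pgk1 held 2, beginning 150 and 131 bases before it. Neither Tpi1 nor Gpi1 held one in this window. Of all 32851 RefSeq promoter windows of that length, 43.8% held at least 1 core and 8.93% held 3 or more, and of the 16 windows of the glycolysis genes 11 did hold at least 1, those of one gene overlapping in part. The letters in a window describe it and say nothing of binding.

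The libraries held 4580807 to 7949367 recovered reads. Neutrophil markers were present in every library, but the summed level of the 10 listed ones (S100a8, S100a9, Ly6g, Csf3r and others) was 52387 to 56281 RPM (recovered reads relative to the scaled library size) in bone marrow, compared with 40350 to 43106 for blood and 9473 to 11848 in tumor. Tumor libraries also carried RNA of other cells. The 10 epithelial markers summed to 2569 to 4843 RPM there, against 88.9 to 101 in bone marrow and 195 to 371 in blood. In tumor against blood and against bone marrow alike, 9 of the 10 were called higher and 1 lower. Of all genes tested, 28.1% and 22.4% were higher in these comparisons, and 34.5% and 32.9% lower. Any marker that passed the filter on low values only through tumor had to come out higher, so these calls add no support. The 8 fibroblast markers summed to 987 to 1134 RPM in tumor and at most 12.5 elsewhere, and 8 acinar markers to 623 to 2307 and at most 9.49. Macrophage markers summed to 311 to 456 RPM in tumor, 361 to 433 in bone marrow and 1295 to 1477 in blood. Blood carried platelet transcripts at 556 to 776 RPM, against at most 13.6 elsewhere. Epithelial, fibroblast and acinar cells all use glycolysis, and the part of their RNA in the tumor values below was not tested. In such bulk samples, fewer cells of a type and less RNA per cell cannot be told apart.

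The 10 enzymes together took 1.29% ± 0.0549 (SD, n = 3) of recovered reads in bone marrow, 0.937% ± 0.0468 of those in blood and 1.497% ± 0.141 of those in tumor. Hexokinases, phosphofructokinases and Ldha are not in this sum. The groups did not overlap, with blood lowest (exact permutation test over all 280 assignments of the libraries to 3 groups of 3, one-sided, p = 0.00357, the smallest it allows). The order of bone marrow and tumor, and the gap between tumor and blood, turned on how libraries were scaled. With the scaled library sizes of the deposited table the 10 genes summed to 15335 ± 929 RPM in bone marrow, against 11150 ± 748 in blood and 13099 ± 1872 in tumor (exact permutation p = 0.0429). Tumor libraries (11905 to 15256) then overlapped both blood (10528 to 11981) and bone marrow (14280 to 16031). That scaling multiplied the library sizes by 0.796 to 0.881 for bone marrow, 0.818 to 0.863 for blood and 1.08 to 1.22 for tumor, so plain totals raise the median of all genes by 0.47 log2 units in tumor against blood and by the same 0.47 against bone marrow. The 9 libraries averaged 0.882 of the mean library size implied by the deposited values, so that table seems to have been scaled together with other libraries.

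**Figure D1:**
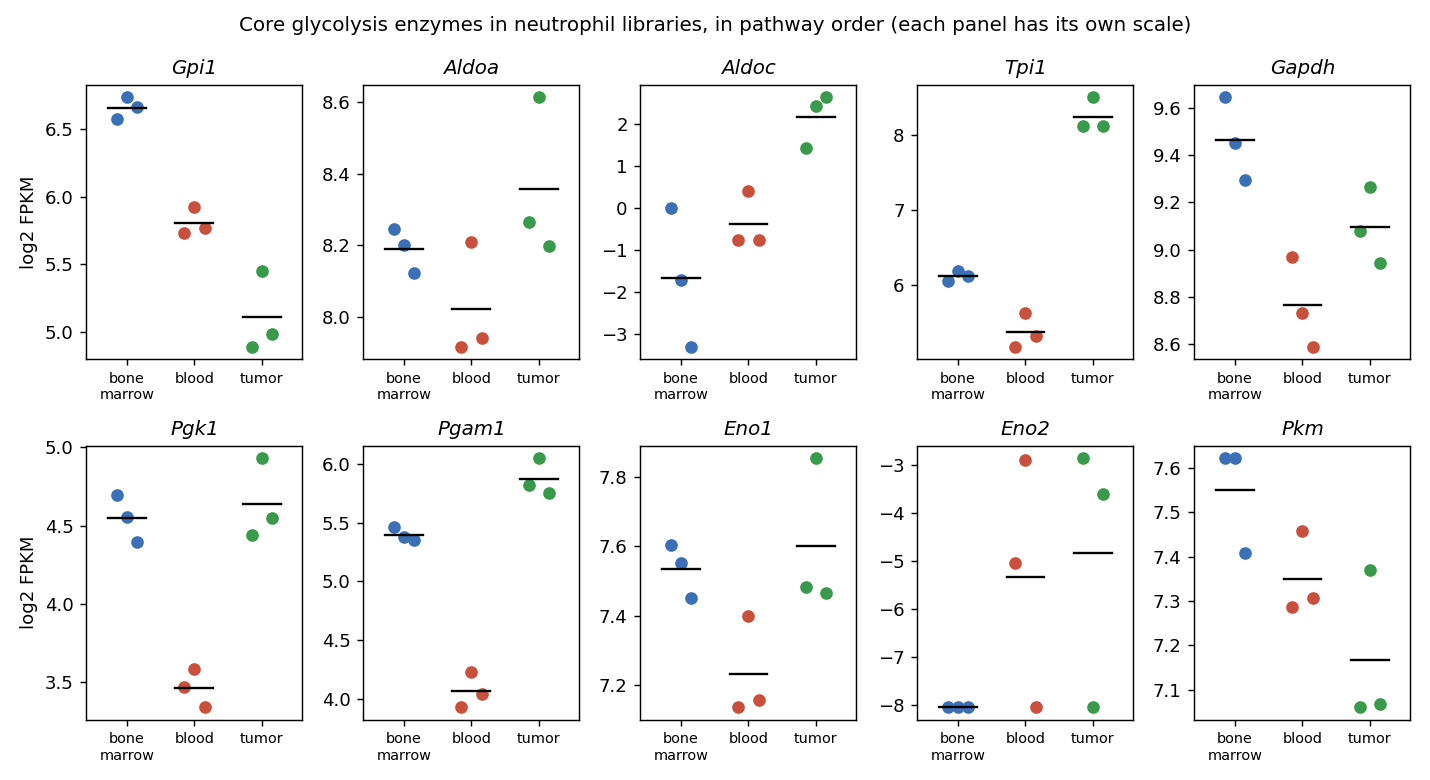
Deposited log2 FPKM (y axis, a separate scale in each panel) of the 10 enzymes in bone marrow (blue), blood (red) and tumor (green) libraries, with a line at each mean of 3. Tpi1 sat at 8.11 to 8.49 in tumor, above every other library, and Gpi1 stepped down from bone marrow to blood to tumor. Points at the bottom of the Eno2 panel are libraries with 0 reads.

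In the upper, energy-spending steps, the isomerase and the main aldolase behaved differently. Gpi1 stood at log2 FPKM (fragments scaled to gene length and library size) of 6.57, 6.73 and 6.66 in the 3 bone marrow libraries, 5.73, 5.92 and 5.77 in blood, and 4.90, 5.45 and 4.99 in tumor. No tumor library reached any blood library, and no blood library reached bone marrow. Gpi1 was 1.79-fold lower in blood than in bone marrow (log2 fold change -0.84, SE 0.15, adjusted p = 0.00259) and 1.62-fold lower in tumor than in blood (-0.70, SE 0.15, adjusted p = 0.00364; limma with Benjamini-Hochberg adjustment over 7794 genes, here and below). The fall from blood to tumor was lost with plain totals (-0.25, adjusted p = 0.107) and with quantile normalization (-0.16, adjusted p = 0.247), whereas that from bone marrow to tumor, 2.91-fold (adjusted p = 7.55e-05), held in every alternative tried.

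Aldoa, the aldolase of muscle and most other tissues, had log2 FPKM of 8.25, 8.20 and 8.12 in bone marrow, 7.92, 8.21 and 7.94 in blood, and 8.26, 8.61 and 8.20 in tumor. These ranges overlapped, and none of its differences passed the test (tumor against blood 0.34, SE 0.14, adjusted p = 0.0634). With plain totals the same difference was 0.78 and passed (adjusted p = 0.000348), as it did with quantile normalization (0.59, adjusted p = 0.00301), limma-voom (0.0496) and the replicate number as a block (0.0315), and without blood replicate 2 (0.0394) or tumor replicate 3 (0.0378).

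Aldoc was scarce. It had 32, 8 and 3 reads in bone marrow, 11, 35 and 13 in blood, and 80, 195 and 235 in tumor. All tumor libraries lay above all others, while bone marrow and blood overlapped. Tumor was higher than blood by 2.54 log2 units (SE 0.80, adjusted p = 0.0240) and higher than bone marrow by 3.83 (SE 0.80, adjusted p = 0.00439). Aldoc, unlike Eno2, passed the filter on low values, but only through tumor, since 2 libraries outside it lay above the limit where 3 were needed. It therefore had to differ, and its p-values support nothing. Its call against blood was lost with no filter (adjusted p = 0.129) and on leaving out blood replicate 1 (adjusted p = 0.0684), blood replicate 3 (0.0688), tumor replicate 2 (0.0674) or tumor replicate 3 (0.0751). Within a library, Aldoc minus Aldoa was -10.23 ± 1.59 log2 units for bone marrow, -8.77 ± 0.51 for blood and -6.56 ± 0.63 for tumor (levels per exonic length, SD, n = 3). Aldoa thus supplied nearly all aldolase transcript in every compartment.

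Triosephosphate isomerase, Tpi1, showed the largest change of the well-expressed enzymes. Its log2 FPKM was 6.06, 6.18 and 6.12 in bone marrow and 5.18, 5.63 and 5.32 in blood, then 8.11, 8.49 and 8.11 in tumor. In reads, the tumor libraries had 6372, 10124 and 8158, against 1527 to 1711 in bone marrow and 533 to 1023 in blood. Tpi1 was 7.27-fold higher in tumor than in blood (log2 2.86, SE 0.15, adjusted p = 4.35e-06) and 4.34-fold higher than in bone marrow (2.12, SE 0.15, adjusted p = 1.55e-05). From bone marrow to blood it was 1.67-fold lower (-0.74, SE 0.15, adjusted p = 0.00473). None of these calls was lost under another scaling, filter or model, or without any 1 library. Spsb2, which overlaps Tpi1 on the other strand, had 68 to 76 reads in tumor against 114 to 291 elsewhere.

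The change in Tpi1 was seen against its neighbours inside each library, where scaling cancels. Tpi1 minus Gpi1, in log2 level per exonic length, came to -2.23 ± 0.02 for bone marrow, -2.13 ± 0.13 for blood and 1.43 ± 0.09 for tumor (SD, n = 3). Tpi1 minus Gapdh was -3.11 ± 0.22, -3.16 ± 0.35 and -0.63 ± 0.10. Bone marrow and blood overlapped in both ratios and every tumor library lay above them. Both pairs were picked after the values were seen, so the ratios carry no test.

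Gapdh, which opens the lower, energy-yielding steps, fell from bone marrow to blood. It had log2 FPKM of 9.64, 9.45 and 9.29 in bone marrow, 8.97, 8.73 and 8.59 in blood, and 9.08, 9.26 and 8.94 in tumor. Blood was 1.62-fold below bone marrow (log2 -0.70, SE 0.15, adjusted p = 0.00732), with no overlap, and the call was lost with no filter (adjusted p = 0.0547). Tumor overlapped blood (0.33, SE 0.15, adjusted p = 0.0907), a difference that passed with plain totals (0.78, adjusted p = 0.00135), limma-voom (0.0459) and the block (0.0417). Its difference from bone marrow was -0.37 (adjusted p = 0.0719), and was called lower with limma-voom (0.0147), quantile normalization (0.0116), the block (0.0334) and without tumor replicate 2 (0.0464), but turned to 0.08 with plain totals.

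Pgk1 and Pgam1 fell from bone marrow to blood and were high again in tumor. Pgk1, which makes the first ATP, had log2 FPKM of 4.69, 4.55 and 4.40 in bone marrow, 3.47, 3.59 and 3.34 in blood, and 4.44, 4.93 and 4.55 in tumor. Bone marrow and tumor overlapped and both lay above blood. It was 2.12-fold lower in blood than in bone marrow (adjusted p = 0.000789) and 2.26-fold higher in tumor than in blood (adjusted p = 0.000239), and tumor and bone marrow differed by 0.09 (SE 0.15, adjusted p = 0.615), a difference that passed with plain totals (0.54, adjusted p = 0.00669) and with quantile normalization (0.45, adjusted p = 0.0106). Pgam1, the mutase, had 5.46, 5.38 and 5.35 in bone marrow, 3.93, 4.23 and 4.04 in blood, and 5.82, 6.05 and 5.75 in tumor, with no overlap between any pair of compartments. Its fall into blood was 2.52-fold (adjusted p = 8.02e-05), and tumor was 3.51-fold above blood (adjusted p = 7.70e-06) and 1.39-fold above bone marrow (log2 0.48, SE 0.11, adjusted p = 0.00673). Cell-cycle markers were lowest in blood as well, with the 10 summing to 820 to 957 RPM for bone marrow, 38.0 to 48.6 for blood and 262 to 386 for tumor, and their part in the levels of Pgk1 and Pgam1 was not tested.

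Eno1 and Pkm stand at the end of the pathway. Eno1 had log2 FPKM of 7.61, 7.55 and 7.45 in bone marrow, 7.14, 7.40 and 7.16 in blood, and 7.48, 7.85 and 7.47 in tumor. It was 1.29-fold higher in tumor than in blood (log2 0.37, SE 0.13, adjusted p = 0.0378), a call that was lost without any 1 of 5 libraries, with adjusted p of 0.0543 and 0.0565 without bone marrow replicates 1 and 2, 0.108 and 0.108 without blood replicates 1 and 3, and 0.0879 without tumor replicate 2. It was also lost with no filter on low values (0.138), with only these compartments in the fit (0.0823) and with no variance trend (0.0605). With plain totals the difference was 0.82 (adjusted p = 0.000225), and Eno1 was also higher in tumor than in bone marrow (0.52, adjusted p = 0.00306), where the deposited values gave 0.07. Pkm had 7.62, 7.62 and 7.41 in bone marrow, 7.29, 7.46 and 7.31 in blood, and 7.06, 7.37 and 7.07 in tumor. Only tumor against bone marrow was called, 1.31-fold lower (log2 -0.38, SE 0.12, adjusted p = 0.0234). With plain totals this difference was 0.07 and without bone marrow replicate 1, bone marrow replicate 2, tumor replicate 1 or tumor replicate 3 it missed the threshold (adjusted p 0.0628 to 0.0782), so the direction of Pkm depended on the scaling.

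Eno2, the neuronal enolase, was at the limit of detection. It had 0 reads in every bone marrow library, which allows up to 3 reads a library (0.449 to 0.530 RPM, counting error only), then 1, 7 and 0 reads in blood and 8, 0 and 6 in tumor. It missed the filter and was not tested. Set against Eno1 in the same library, its exact permutation p over the compartments was 0.264, and at these counts a difference was not detectable.

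**Figure D2:**
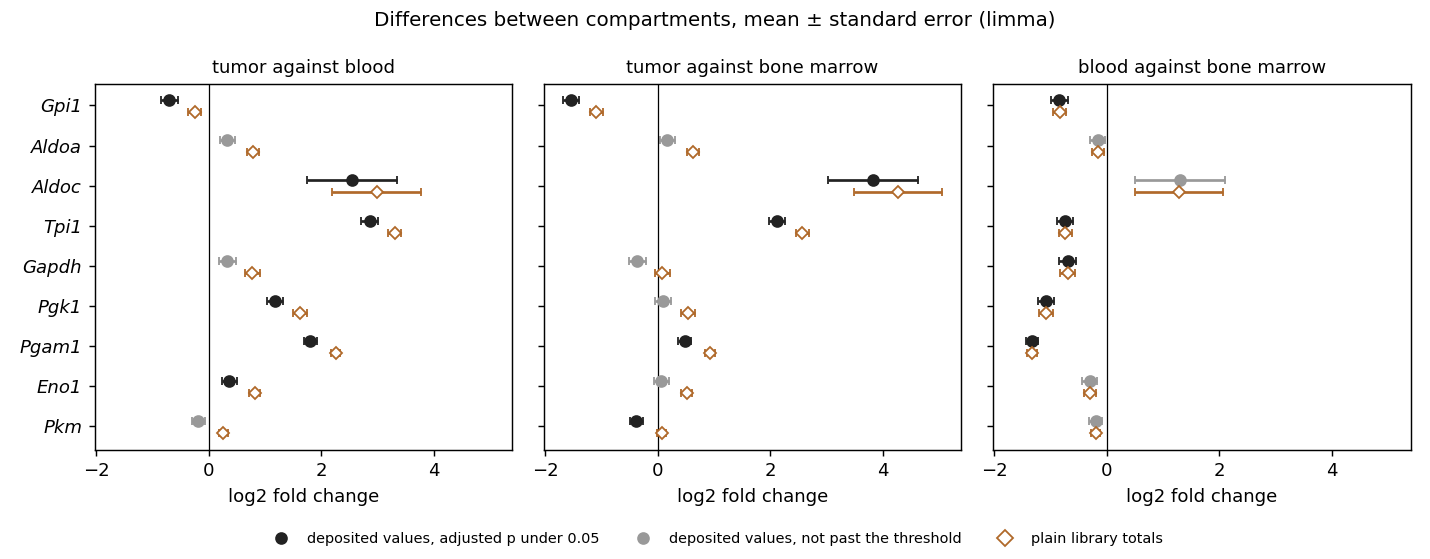
Log2 fold change (x axis) of the 9 tested enzymes in the 3 comparisons, with standard errors from limma. Filled circles use the deposited values, black where the adjusted p was under 0.05, and open diamonds use plain library totals. Tpi1 stood at 2.86 and 2.12 in tumor against blood and bone marrow, and plain totals moved every tumor value to the right.

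The calls were then counted over the pathway. Of 9 enzymes tested, 5 were lower in blood (Gpi1, Tpi1, Gapdh, Pgk1 and Pgam1) and 0 were higher, where 23.6% of all genes tested were lower and 20.6% higher. Aldoc alone had a positive difference (adjusted p = 0.230). At an unadjusted p under 0.05, limma still had 0 higher, as did limma-voom after adjustment. The median log2 fold change was -0.70 beside -0.04 over all genes. Tumor against blood gave 5 higher (Aldoc, Tpi1, Pgk1, Pgam1 and Eno1) and 1 lower (Gpi1), where 28.1% of genes were higher and 34.5% lower, with a median of 0.37 beside -0.17. Tumor against bone marrow gave 3 higher (Aldoc, Tpi1 and Pgam1) and 2 lower (Gpi1 and Pkm), where 22.4% were higher and 32.9% lower, with a median of 0.09 beside -0.21. With plain totals these counts became 8 higher and 0 lower against blood (38.6% and 24.3% of all genes) and 6 higher and 1 lower against bone marrow (34.8% and 20.9%), while blood against bone marrow gave 0 higher and 6 lower (21.3% and 23.1%). At an unadjusted p under 0.05, the count lower in tumor than in blood with plain totals was 0. Limma-voom on recovered reads called 7 higher and 1 lower in tumor against blood (32.3% and 22.6% of 17714 genes), Aldoa and Gapdh being added, and 3 higher and 3 lower in tumor against bone marrow (29.8% and 20.5%). Over the 8 enzymes that passed the filter without help from their highest compartment, that is without Aldoc, the counts were 4 higher and 1 lower in tumor against blood (22.6% and 40.5% of the 5583 genes that passed in the same way), 2 and 2 against bone marrow (17.1% and 38.0%), and 0 and 5 in blood against bone marrow (22.4% and 23.8%). The comparisons share libraries, so the counts are not independent of each other.

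Across all 3 compartments at once, 8 of the 10 genes had an exact permutation p under 0.05, unadjusted, as did 71.5% of all genes tested, so the count is near the background. It was 0.00357 for Gpi1, Tpi1 and Pgam1, 0.00714 for Gapdh, 0.0107 for Aldoc, 0.025 for Pgk1, 0.0357 for Pkm and 0.0464 for Eno1. The exact p missed 0.05 for Aldoa (p = 0.0750) and Eno2 (p = 0.286). Differences between compartments made up 98.5% of the summed squares of Tpi1, 98.1% of that of Pgam1 and 94.4% of that of Gpi1, and 51.4% of that of Aldoa.

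The make-up of the pathway was next expressed free of library size, as each gene's share of the summed reads per exonic kilobase of all 10. Tpi1 took 2.69% ± 0.225 in bone marrow and 2.23% ± 0.237 in blood, and 12.3% ± 0.235 in tumor (SD, n = 3; exact permutation p = 0.00714). Gpi1 went the other way, from 12.6% ± 1.19 and 9.68% ± 0.320 to 4.58% ± 0.359 (exact p = 0.00357). In bone marrow the pathway thus held more isomerase transcript for the hexose than for the triose, and in tumor the reverse. Pgam1 and Pgk1 had their lowest shares in blood, 2.27% ± 0.151 and 3.23% ± 0.0821, and their highest in tumor, 6.09% ± 0.205 and 5.60% ± 0.338, without overlap among the 3 groups (exact p = 0.00357 for each). Pkm took the largest share in blood, 29.7% ± 0.846, against 24.6% ± 0.690 in bone marrow and 20.01% ± 0.407 in tumor (exact p = 0.00357). Gapdh took 23.2% ± 1.51, 19.9% ± 2.86 and 19.0% ± 0.978. Blood overlapped both other compartments, and bone marrow lay above tumor without overlap, but the test over the 3 groups did not pass (exact p = 0.121). Aldoc stayed at 0.211% ± 0.0863 even in tumor. Shares must sum to 100%, so a rise of one lowers the rest. They were added after the data were seen, so their exact p-values describe the shares and add no support.

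**Figure D3:**
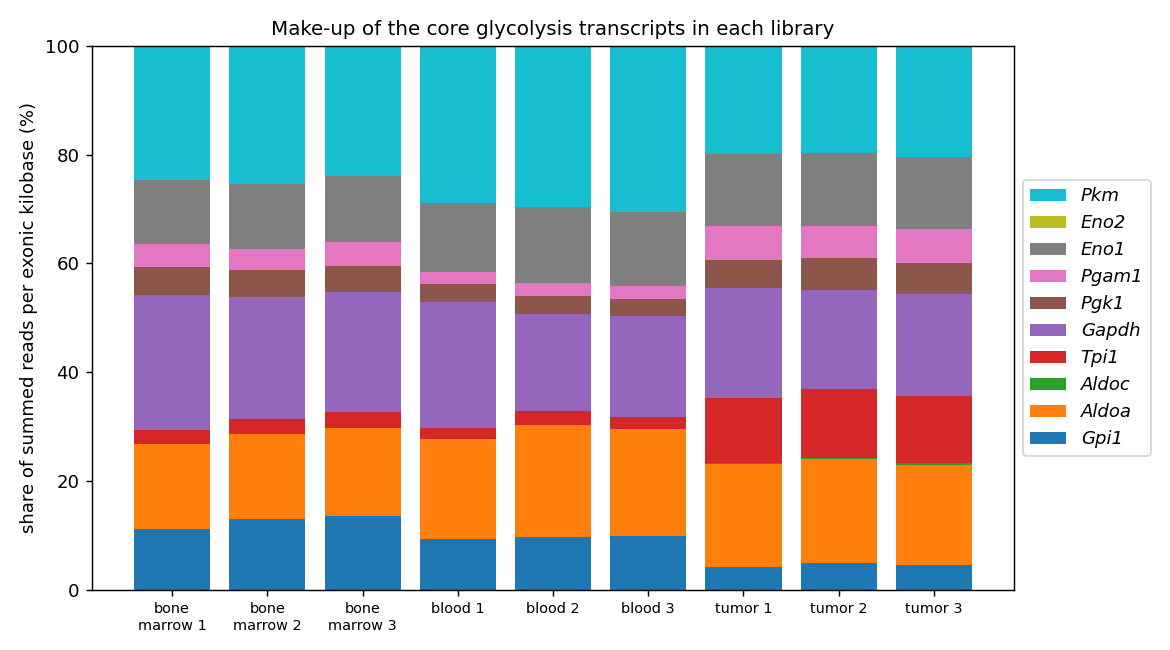
Stacked bars of the share (y axis, percent) that each enzyme took of the summed reads per exonic kilobase of all 10 genes, for each of the 9 libraries. The Tpi1 band widens from 1.97% to 2.87% in bone marrow and blood libraries to 12.1% to 12.6% in tumor, while the Gpi1 band narrows to 4.21% to 4.93%.

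Levels of different genes were compared per exonic length, since the table divides by the whole genomic span for most genes. If reads are exonic, that understates genes with long introns. Per exonic length, bone marrow ran Pkm, Gapdh, Aldoa, Gpi1, Eno1, Pgk1, Pgam1, Tpi1, Aldoc and Eno2. The levels went from 9.75 ± 0.12 (log2, SD) for Pkm to 6.55 ± 0.06 for Tpi1 and -1.12 ± 1.65 for Aldoc. Pkm and Gapdh overlapped there, as did Gpi1 and Eno1. Blood had the same order except that Eno1 passed Gpi1, with Gapdh and Aldoa overlapping and Pgam1 and Tpi1 overlapping. In tumor Tpi1 stood at 8.67 ± 0.22, next to Eno1 at 8.78 ± 0.22, and Gpi1 at 7.24 ± 0.30 was the lowest of the 8 well-expressed enzymes, overlapping Pgk1. Pkm, Gapdh and Aldoa overlapped in sequence at the top. By genomic span Gapdh was at the top in all 3 compartments instead.

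Single libraries stood out across enzymes. Tumor replicate 2 was the highest tumor library for each of the 8 well-expressed enzymes, and it had the lowest scaling factor of the tumor libraries, 1.08, and the lowest epithelial sum, 2569 RPM, against 3235 and 4843 in replicates 1 and 3. Blood replicate 2 was likewise the highest blood library for 7 of the 8, Gapdh excepted, with the lowest factor in blood, 0.818, and the highest epithelial sum, 371 RPM. The part of these measures in the levels was not tested. Without tumor replicate 2, Pgk1 and Eno1 in tumor against bone marrow were -0.05 and -0.06, so they changed sign around 0.

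Several enzymes share sequence with other annotated genes, which bears on how reads are assigned. Of all 100-base windows of their transcripts, 51.7% of those of Pgk1, 33.9% of Pgam1, 20.9% of Gapdh, 20.4% of Eno1 and 12.3% of Pkm also occurred in another gene. The other genes were mostly pseudogenes (82 of 84 for Gapdh), and the values of these enzymes are uncertain to that extent. For Tpi1 the share of such windows was 0.422%, for Gpi1 2.02%, and for Aldoa and Aldoc 0. The 79 of the 84 genes that the table listed held 146 to 289 reads in all per library, against 8587 to 25423 for Gapdh itself. The libraries were unstranded, so reads of Gpi1 and its antisense neighbour Gm26762 (202 to 418 reads) or of Gapdh and Iffo1 (56 to 171) cannot be told apart where they overlap.

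Other isozymes of these steps were rare. Of 9 listed, 4 passed the filter. Eno3, the muscle enolase, had 50 to 86 reads in tumor against 15 to 24 in blood and 14 to 40 in bone marrow (higher in tumor by 1.17, adjusted p = 0.0481, and 1.47, adjusted p = 0.0224). It passed the filter only through tumor, and its call was lost in 9 of 19 other settings against blood (highest adjusted p 0.198) and in 5 of 19 against bone marrow (0.111). Pgam2, the muscle mutase, was lower in tumor, at -1.43 (adjusted p = 0.0195) and -1.496 (adjusted p = 0.0184), on 10 to 33 reads. Its call was lost in 6 of 19 other settings against blood (highest adjusted p 0.104) and in 5 of 19 against bone marrow (0.104), plain totals and no filter among them. Bpgm, which makes 2,3-bisphosphoglycerate and is abundant in red cells, was higher than in bone marrow by 2.18 in blood (adjusted p = 0.00134) and 2.27 in tumor (adjusted p = 0.000644), though only 2 libraries outside tumor met the filter's limit. Red-cell markers summed to 284 to 576 RPM in blood, 11.3 to 129 in tumor and 31.8 to 71.2 in bone marrow, and their part in Bpgm was not tested. Pklr, the pyruvate kinase of liver and red cells, had 29 to 57 reads in tumor and at most 4 elsewhere, and was not tested.

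The steps before and after the core changed in both directions too. Of 28 listed genes, 19 were tested. In tumor against blood 9 were higher and 5 lower, where 28.1% and 34.5% of all genes were. In tumor against bone marrow 9 were higher and 8 lower (22.4% and 32.9% of all genes), and in blood against bone marrow 7 and 9 (20.6% and 23.6%). Their median differences were 0.29, 0.33 and -0.17 log2 units, beside -0.17, -0.21 and -0.04 over all genes. Slc16a1, Pdk1, Pdk3 and Mpc2 passed the filter only through the compartment where they were highest. Over the other 15, the counts were 7 higher and 5 lower, 7 and 6, and 6 and 6. With plain totals the counts were 10 higher and 5 lower, 10 and 6, and 7 and 9. At glucose entry, the transporter Slc2a1 was 2.00-fold higher in tumor than in blood (adjusted p = 0.00161) and 7.89-fold higher than in bone marrow, while Slc2a3 was 3.14-fold and 3.52-fold lower (adjusted p = 4.10e-05 and 2.98e-05). Among hexokinases, which trap glucose in the cell, Hk2 was higher in tumor by 2.28 log2 units against blood and 1.20 against bone marrow, and Hk3 was lower, at -0.98 and -2.01. So the steps just before Gpi1 moved by isoform.

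Phosphofructokinase, the committed step between Gpi1 and the aldolases, was higher in tumor for both tested forms. Pfkl was 5.22-fold and Pfkp 3.74-fold above blood (adjusted p = 1.68e-05 and 7.73e-05), and 6.81-fold and 5.90-fold above bone marrow. Of the enzymes that set the level of its activator, Pfkfb3 was higher by 1.26 and 1.44 log2 units and Pfkfb4 was lower, at -2.83 and -1.85. Gpi1, lower in tumor against bone marrow, thus stands between hexokinases that moved both ways (Hk2 higher, Hk1 at -0.71 and Hk3 lower) and phosphofructokinase, which was higher.

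After pyruvate, Ldha, which makes lactate, was 2.65-fold above blood and 1.90-fold above bone marrow (adjusted p = 0.000160 and 0.00169). The lactate exporter Slc16a3 did not pass the test in tumor against blood (-0.12, SE 0.17, adjusted p = 0.541), and Slc16a1, which met the filter in the tumor libraries alone, had 311 to 771 reads in tumor against 2 to 14 in blood. Pdk1, which holds pyruvate dehydrogenase inactive, was 3.32-fold above blood, having met the filter through tumor, Mpc1, a subunit of the carrier that takes pyruvate into mitochondria, was 6.09-fold below it, and Pdhb, a subunit of pyruvate dehydrogenase, was 1.84-fold above it. The part of other cells' RNA in these tumor values was not tested.

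**Figure D4:**
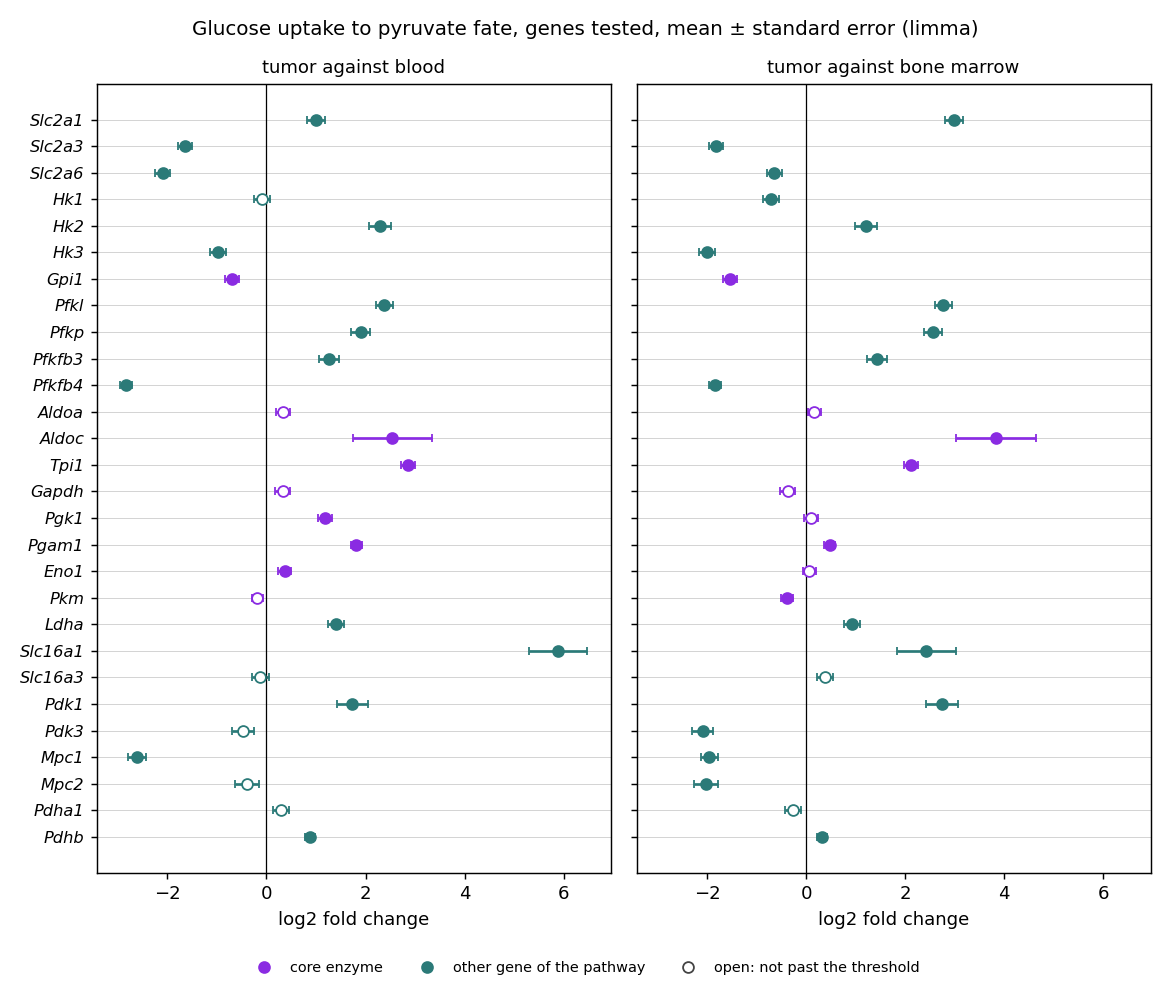
Log2 fold change (x axis) of the 28 tested genes from glucose uptake to pyruvate fate, from top to bottom in pathway order, in tumor against blood and tumor against bone marrow, with standard errors. Purple marks the core enzymes, green the other genes, and open circles did not pass the threshold. Gpi1 at -0.70 and -1.54 sits below Hk2 at 2.28 and 1.20 and Hk3 at -0.98 and -2.01, and above Pfkl at 2.38 and 2.77.

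The 5 genes outside the pathway whose level most resembled the mean profile of the 9 tested enzymes over the 9 libraries were Impa2 (Pearson r = 0.914), Psmc4 (0.913), Fbxo30 (0.913), Hist1h4c (0.901) and Dus1l (0.899). They were lowest in blood, as that mean profile was. The libraries share 3 compartments and their scaling, and the values are a description. Within the pathway, Eno1 (r = 0.978) and Pgk1 (0.955) lay nearest the mean profile that they are part of, and Gpi1 (0.123) and Pkm (0.298) farthest.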

How the data were processed

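RNA of sorted neutrophils was made into SMARTSeq v2 libraries and sequenced in pairs of 151 bases. Per the paper and the labels, the authors mapped reads to GRCm38/mm10 with STAR (version 2.5.2b in the submitters' processing notes), counted them over GENCODE M7 genes with featureCounts (1.5.0) and deposited log2 FPKM values. The steps between values gave whole reads for all 46517 genes (within 0.0001 reads), the scaled library sizes, and, for 39023 genes, a length equal to the genomic span. Genes above 0 on that scale in 3 or more libraries, 7794 in all, were fitted with limma 3.58.1 (R 4.3.3), 1 coefficient per compartment, trended variance, Benjamini-Hochberg adjusted p under 0.05. No pseudocount was added to them. Single values were tested by exact permutation over 280 splits (3 against 3 cannot go below 0.1). Exact p-values are not adjusted. Reads per exonic kilobase used GENCODE M21 (GRCm38) and took all reads of a gene as exonic, which was not tested. Data were simulated for tumor against blood over 7144 genes, 126 of them changed. The fit called 44.3% of genes changed by 1 log2 unit and 95.4% of those changed by 2, none in the wrong direction, and 4 unchanged genes. Far fewer genes changed there than in the real libraries and no difference in scaling was simulated, so it cannot speak to the choice of scaling. Recovered reads were also tested with limma-voom (trimmed mean of M values). Alternatives were other filters, pseudocounts, scalings and models, and leaving out each library. Named genes were the 10 enzymes, the listed isozymes and other pathway genes, genes overlapping an enzyme, and the 5 closest in profile. The members and lists were chosen with earlier results of these data known. Shares, the Tpi1 ratios and counts without genes that passed the filter only through their highest compartment were added after the data were seen. Replicates were pools from separate experiments. The main fit and the permutations took the 9 libraries as independent, although the paper describes the compartments as sharing animals.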

Additional observations from a re-analysis of the deposited data

How the results depend on the processing

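Over 20 other settings, the calls of Tpi1 and Pgam1 in all 3 comparisons, of Pgk1 in tumor against blood and blood against bone marrow, and of Gpi1 in tumor and blood against bone marrow kept their direction and their side of the threshold. They were lost only where a log2 fold change of at least 1 was also asked and the change was smaller. With that fold threshold, tumor against blood had 0 enzymes lower, tumor against bone marrow 1 and blood against bone marrow 2. Plain library totals gave 8 higher and 0 lower in tumor against blood, with a median of 0.82 beside 0.30 over all genes. Against bone marrow they gave 6 higher and 1 lower, with a median of 0.54 beside 0.26. They turned Pkm against blood to 0.26 and Gapdh and Pkm against bone marrow to 0.085 and 0.067. Quantile normalization gave 0 lower in tumor against blood (median 0.64, Pkm 0.13) and 8 lower in blood against bone marrow (median -0.84). With no filter on low values 3 enzymes were higher and 1 lower in tumor against blood, 1 was lower in tumor against bone marrow, and the median of blood against bone marrow was -0.50, Eno2 being included. In limma-voom on recovered reads that median was -0.43. A fit with only the compartments compared had 1 lower in tumor against bone marrow. Eno2 minus Eno1, tumor minus blood, turned to -0.34 and -0.20 with pseudocounts of 1 and 0.1 and to -0.017 with plain totals, at 0 to 8 reads of Eno2. Shares and medians of all genes are not given for quantile normalization, no filter, the fold threshold or the fit with only the compartments compared. Counts and medians under those settings show how the calls moved and are not read as results about the enzymes. The cause of the other changes was not tested.

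Leaving out 1 library at a time, tumor against blood had 3 to 6 enzymes higher and 1 to 2 lower (3 higher without blood replicate 1, blood replicate 3 or tumor replicate 2, and 2 lower without tumor replicate 2), tumor against bone marrow 1 to 3 lower (1 without bone marrow replicate 1 or 2 or tumor replicate 1 or 3) with a median of -0.052 to 0.19, and blood against bone marrow 0 to 1 higher (Aldoc, without bone marrow replicate 1). Shares of all genes are not given for these runs either, so the counts show only how the calls moved. Pgk1 ran from -0.052 to 0.19 and Eno1 from -0.061 to 0.13 in tumor against bone marrow, and Eno2 minus Eno1 from -1.20 to 1.86. Over all genes, limma-voom called 9721, 8921 and 5314 in the 3 comparisons, against 4880, 4311 and 3446 in the fit of log2 FPKM, which tested fewer genes (7794 against 17714).

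Libraries with the same replicate number deviated together with correlations of -0.07 to 0.11, and 4 of 9 correlated best with their own number. The paper describes the compartments as sharing animals, but the labels do not say that the same number marks the same pool. Such correlations cannot settle it, so a fit with that number is given as well. With the replicate number as a block, 7 enzymes were higher and 1 lower in tumor against blood (27.8% and 34.4% of all genes), Aldoa and Gapdh being added, 3 higher and 3 lower in tumor against bone marrow (21.9% and 32.5%), Gapdh being added, and 5 lower in blood against bone marrow (23.2%). The tumor values rest on 3 pools, and the scarce Aldoc and Eno2 carry the widest errors.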
